A study of Homo sapiens with 30 samples.

Results

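The nuclear genes for subunits of the mitochondrial respiratory chain and ATP synthase were followed in 22Rv1 cells, an established human line of castration-resistant prostate cancer. They were chosen by symbol alone, as genes with messenger RNA entries whose symbols start with NDUFA, NDUFB, NDUFC, NDUFS, NDUFV, UQCR, COX4 to COX8 or ATP5, or are SDHA, SDHB, SDHC, SDHD or CYC1, without assembly factors and read-through names. The rule found 90 of the 22355 genes in the deposited table. Of these, 87 encode subunits (37 of complex I, 4 of complex II, 10 of complex III, 19 of complex IV and 17 of complex V), and 3 carried their names only as older symbols (EMC8, DMAC2 and DMAC2L). Current symbols are used throughout, so the former NDUFA4 and NDUFA4L2 appear as COXFA4 and COXFA4L2 and count with complex IV.

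SLAM-seq reads new RNA beside old. Cells take up 4-thiouridine (s4U), the extracted RNA is alkylated, and reads of labelled RNA then carry T-to-C conversions. A pulse of 800 µM s4U lasted 30 min, and its end is 0 h. From there the label stayed in the medium together with vehicle (DMSO) or with a compound, KB742 at 1.2 µM or KI-ARv-03 at 4 µM, and cells were collected 2, 4 or 8 h later. Both compounds inhibit CDK9, the kinase that releases paused RNA polymerase II into productive elongation. There were 3 libraries in each of 10 groups, 30 in all. Nothing in the labels says that the 3 libraries of a group came from separate cultures, so p-values measure the spread between these libraries, which may be technical. The cells are a single line, and 0 h has no s4U-free control among the groups used here.

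Complexes I to IV pass electrons from NADH and succinate to oxygen while complexes I, III and IV move protons across the inner mitochondrial membrane, and complex V makes ATP from that gradient. Most of their subunits are encoded in the nucleus, made in the cytosol and imported, and a few core subunits of every complex except complex II come from mitochondrial DNA. The nuclear genes are active in nearly every tissue, and nuclear respiratory factors, ETS factors and YY1 are known regulators of many of them.

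The libraries held 3376884 to 9265131 reads, of which 1409598 to 3959158 fell on the transcripts used, and 11646 to 14328 genes had a read in a library. Levels below are CPM taken relative to a library's reads on these transcripts and rescaled between libraries. They are not on the scale of the deposited CPM, which are relative to all reads of a library. Differences are on the log2(CPM + 1) scale ± SE from limma with Benjamini-Hochberg adjustment over the 11395 genes tested. A gene was called at an adjusted p under 0.05. All 10 luminal prostate markers had reads, with a summed level of 985 to 1766 CPM per library, against 0.506 to 27.2 CPM for 14 markers of other cell types (basal, fibroblast, endothelial, immune), 5 of which had no read. There were 3 libraries that stood apart. KB742 2 h replicate 2 and 0 h replicate 3 had the lowest mean correlation with their groups (0.870 and 0.878), and KI-ARv-03 4 h replicate 1 had a mean conversion of 1.17% where the other libraries of its group had 0.374% and 0.416%.

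Of the 87 subunit genes, 81 had enough reads to be tested by level. The 6 others are forms of complex IV subunits that are mainly known from muscle, lung or testis. COX4I2, COX6A2, COX7A1 and COX7B2 had 0 reads in all 30 libraries, which allows a level of up to 0.0162 CPM (3 counts in 185515128 reads, for counting error only). This limit is relative to all reads of the libraries, unlike the rescaled levels of other genes. COX8C had 6 reads, and COX6B2 had 3, which are the reads also listed for MIR6836. The partners of these forms (COX4I1, COX6A1, COX6B1, COX7A2 and COX8A) were tested in every comparison by level. Values of UQCRH and UQCRHL, and of ATP5MG and ATP5MGL, are uncertain because the members of each pair are near-identical copies, and ATP5F1E shares its reads with a read-through transcript.

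A promoter was found in RefSeq (GRCh38.p14) for 70 of the 87 subunit genes, as 250 bases before to 50 bases after the start. The deposited files use hg19 per the submitters' processing notes, so these coordinates are those of the RefSeq table only. In 60 of the 70, bases just after the start were also found near the start of a GENCODE 29 transcript of the same gene. In the rest they were not, and all 70 were kept. Both strands were searched for 3 sets of letters. CCGGAAG ends in the AAG with which AAGATGGC begins, so matches of these 2 can share bases. The letters typical of sites for the factor NRF1, spelled by the first capitals of the SDHD sequence below, were in 4 of 70 promoters (5.71%), against 1.36% of all 27305 promoters and 2.49% of the 9316 promoters of genes tested by level. CCGGAAG, typical of ETS factors, was in 20 (28.6%), against 10.7% and 20.3%. AAGATGGC, typical of YY1, was in 11 (15.7%), against 3.03% and 5.84%. These are matches of letters and not shown binding sites. For each complex, the tested subunit gene with the most reads, among those whose sequence can be shown, that holds the NRF1 or ETS letters in the 120 bases before its start is printed, to show where the letters lie. Capitals mark the letters found, and CTTCCGG is CCGGAAG read on the other strand. The windows run 5′ to 3′ on the strand of the gene. They lie at chrX:119871712-119871831 (plus strand) for NDUFA1 of complex I, chr11:112086753-112086872 (plus) for SDHD of complex II, chr1:46303578-46303697 (plus) for UQCRH of complex III, chr11:63974500-63974619 (plus) for COX8A of complex IV and chr21:25735055-25735174 (minus) for ATP5PF of complex V, each directly upstream of the annotated start.
NDUFA1: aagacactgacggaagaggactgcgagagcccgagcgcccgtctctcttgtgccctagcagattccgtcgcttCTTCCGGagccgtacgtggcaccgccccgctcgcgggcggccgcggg
SDHD: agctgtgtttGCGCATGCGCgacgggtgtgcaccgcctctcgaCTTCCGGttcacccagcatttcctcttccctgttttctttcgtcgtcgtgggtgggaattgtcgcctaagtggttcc
UQCRH: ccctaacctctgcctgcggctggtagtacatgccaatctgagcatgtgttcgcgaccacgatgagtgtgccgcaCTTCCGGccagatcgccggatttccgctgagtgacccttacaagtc
COX8A: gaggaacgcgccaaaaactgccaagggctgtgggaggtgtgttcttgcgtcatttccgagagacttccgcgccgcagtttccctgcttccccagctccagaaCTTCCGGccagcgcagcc
ATP5PF: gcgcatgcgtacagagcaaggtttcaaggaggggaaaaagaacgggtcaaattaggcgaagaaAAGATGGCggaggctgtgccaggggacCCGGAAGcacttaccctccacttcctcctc
The ETS letters lie within 50 bases of the start in NDUFA1 (47 to 41 bases before it), UQCRH (46 to 40), COX8A (18 to 12) and ATP5PF (30 to 24). In SDHD they lie 77 to 71 bases before the start, and the NRF1 letters 110 to 101 bases before it. SDHD is the 1 subunit promoter of 70 with both.

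The subunit genes took a growing part of the reads while cells stood in DMSO. Together they held 3.15 to 3.95% of the reads on genes in the 3 libraries at 0 h, 4.50 to 4.62% at 2 h, 5.19 to 5.83% at 4 h and 6.35 to 7.10% at 8 h. The 4 groups do not overlap. With KB742 the share was 3.92 to 4.65%, 4.76 to 5.44% and 5.64 to 6.10% at the same times, and with KI-ARv-03 4.69 to 5.04%, 4.83 to 5.22% and 5.59 to 6.22%. At 8 h all 6 libraries with a compound lay above all 3 libraries at 0 h and below all 3 libraries with DMSO. Levels and shares are relative to the other RNA of a library, so a rise does not say that a cell held more of these RNAs, and in bulk samples RNA per cell and the make-up of the cells cannot be told apart.

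**Figure D1:**
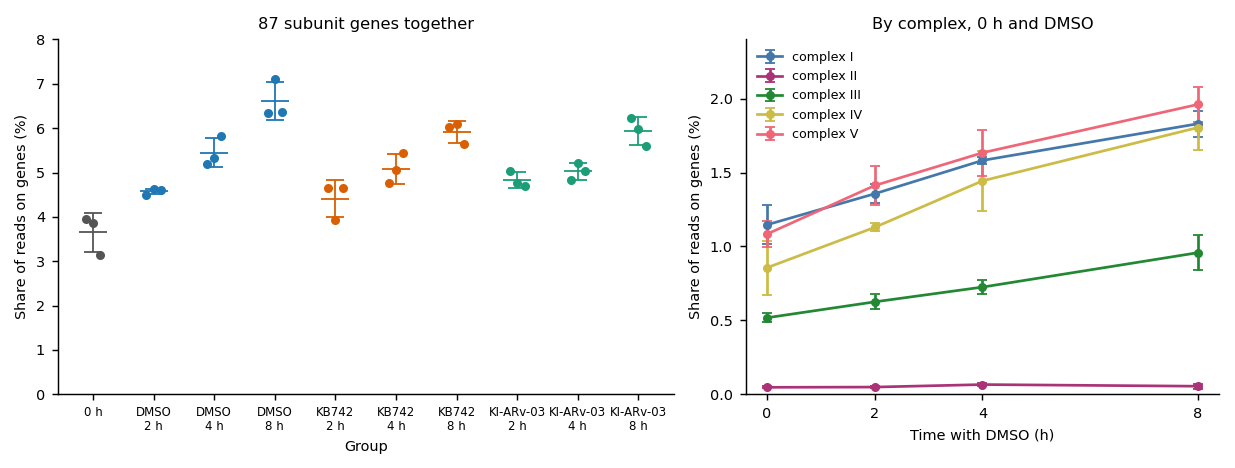
Left: reads on the 87 subunit genes as a percentage of all reads on genes, 1 point per library, with the mean and SD of 3 libraries per group. Right: the same share by complex at 0 h and after 2, 4 and 8 h with DMSO (mean ± SD, n = 3); the left panel rises from 3.15 to 3.95% at 0 h to 6.35 to 7.10% with DMSO at 8 h.

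The question of the DMSO series is how these genes moved with time in vehicle and s4U, against which the compounds are read. The label stayed in the medium throughout, so time, DMSO and exposure to s4U cannot be told apart in this series. After 8 h with DMSO, 69 of the 81 tested subunit genes were higher than at 0 h and 0 were lower, where 19.6% of all genes tested were called higher and 29.2% lower. The median difference was 1.57 over the subunit genes and -0.16 over all genes. At 4 h 37 were higher and 0 lower, where 5.86% of all genes were called higher and 14.3% lower, with a median of 0.97 against 0.02. In the libraries at 2 h limma called 0 of the 81, where 2.58% of all genes were called in either direction, and 11 had an unadjusted p under 0.05. The share of all genes with such an unadjusted p is not given here. At 2 h edgeR called 0 and DESeq2 1 (UQCR11). In 73 of the 81 genes the group means rose from 0 h over 2 and 4 to 8 h without a step back. The share of all genes that rose in this order is not given here.

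How libraries are scaled sets how many calls there are. The rescaling used here (TMM) put the median difference of all genes at -0.16 at 8 h, scaling by library size put it at -0.88 and the deposited CPM at -0.73. Relative to that median the subunit genes stood 1.73, 1.65 and 1.56 higher. Calls over all genes split into 2239 higher and 3330 lower with TMM, 468 and 5219 by library size, and 432 and 4906 with the deposited CPM. The subunit genes called higher were 69, 33 and 36, and 0 were lower under each, where 19.6%, 4.11% and 3.79% of all genes were called higher. Under all 3 scalings 32 subunit genes were higher at 8 h (12 of complex I, 4 of complex III, 10 of complex IV and 6 of complex V), and 31 of them, all but NDUFA6, were higher under every one of the 17 settings run. The call at 4 h was less stable. It went from 37 to 9 by library size and 6 with the deposited CPM (1.09% and 0.579% of all genes), to 17 without the 3 libraries that stood apart, to 20 without 0 h replicate 3, to 22 without DMSO 4 h replicate 2 and to 13 without DMSO 4 h replicate 3. Shares of all genes with libraries left out are not given here. COX4I1, COX6A1, COX7A2, NDUFS5 and UQCR11 were higher at 4 h under all 17 settings. Shares of all genes higher under all 3 scalings, or under all 17 settings, are not given here.

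Complex I takes electrons from NADH. At 8 h with DMSO, 32 of its 37 genes were higher, with a median of 1.52. Of the 7 nuclear core genes, which carry the flavin, the iron-sulfur clusters and the quinone site, 5 were higher (median 1.36), and of the 30 accessory genes 27 (median 1.61). NDUFA1, a small membrane-anchored accessory subunit, stood at 795, 773 and 403 CPM at 0 h and at 2199, 2284 and 2483 CPM with DMSO at 8 h. The groups lie far apart, and the difference was 1.88 ± 0.27 (adjusted p = 5.4e-06). NDUFS5, an accessory subunit on the intermembrane side, went from 268, 241 and 210 CPM to 911, 1115 and 957 CPM, again without overlap (2.05 ± 0.20, adjusted p = 2.1e-08). The other 2 of the 3 complex I genes with the most reads, NDUFB2 (2.00 ± 0.36) and NDUFC1 (1.27 ± 0.40), were also higher.

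Among the core genes of complex I, NDUFV1, which binds NADH and the flavin, stood at 76.5, 54.2 and 94.4 CPM at 0 h and at 180, 282 and 207 CPM at 8 h (1.57 ± 0.33, adjusted p = 0.00035). NDUFS1, the largest iron-sulfur subunit, went from 101, 126 and 37.7 CPM to 188, 234 and 189 CPM (1.36 ± 0.39, adjusted p = 0.0059). Both rose without overlap. NDUFS8, an iron-sulfur core subunit, was not called (1.55 ± 0.83, adjusted p = 0.13), nor were the accessory genes NDUFB3 (0.28 ± 0.77), NDUFB7 (0.82 ± 0.52) and NDUFV3 (0.90 ± 0.53).

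Complex II, succinate dehydrogenase, is the 1 complex made wholly from nuclear genes and the smallest. The membrane anchor SDHC was higher at 8 h, with 90.2, 96.4 and 154 CPM at 0 h against 264, 236 and 308 CPM (1.27 ± 0.32, adjusted p = 0.0019). The iron-sulfur subunit SDHB passed narrowly, with 185, 209 and 88.8 CPM against 270, 298 and 507 CPM (1.18 ± 0.49, adjusted p = 0.048). The groups of both genes are apart. The flavoprotein SDHA was not called (0.98 ± 0.91, adjusted p = 0.38), and its libraries overlap. SDHD, the other anchor, was the only subunit gene with a negative difference at 8 h. It stood at 70.8, 84.5 and 24.3 CPM at 0 h and at 23.3, 36.5 and 48.0 CPM with DMSO at 8 h, so the groups overlap and the difference of -0.60 ± 0.91 (adjusted p = 0.60) is smaller than its error.

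Complex III passes electrons from ubiquinol to cytochrome c. At 8 h 9 of its 10 genes were higher, with a median of 1.48. UQCRQ, a small subunit of the quinone-binding region, stood at 760, 649 and 575 CPM at 0 h, at 976, 916 and 911 CPM at 2 h, at 1197, 1661 and 1471 CPM at 4 h and at 2480, 3799 and 2198 CPM at 8 h with DMSO. No library of a later time falls below one of an earlier time, and the difference at 8 h was 2.06 ± 0.24 (adjusted p = 3.1e-07). UQCR11 rose with little spread, from 282, 278 and 226 CPM to 898, 1165 and 940 CPM (1.93 ± 0.20, adjusted p = 6.7e-08). CYC1, cytochrome c1, rose by 1.29 ± 0.38, and UQCRC1 and UQCRC2, the core proteins, by 1.39 ± 0.48 and 1.24 ± 0.29. UQCRHL had the largest difference of all subunit genes (2.33 ± 0.68, adjusted p = 0.0060), on 246, 239 and 41.0 CPM at 0 h against 558, 438 and 1293 CPM, and is a near-copy of the hinge protein gene UQCRH, which rose by 1.87 ± 0.25. UQCRFS1, the Rieske iron-sulfur protein, was the 1 complex III gene without a call. It stood at 117, 137 and 62.3 CPM at 0 h and at 122, 109 and 97.9 CPM at 8 h (0.13 ± 0.31, adjusted p = 0.76).

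Complex IV, cytochrome c oxidase, reduces oxygen. Its tested genes had the highest median of the 5 complexes at 8 h (1.90, with 11 of 13 higher), and 10 of 13 were already higher at 4 h. COX7A2, the widely expressed form of subunit 7a, stood at 493, 408 and 301 CPM at 0 h, at 582, 651 and 739 CPM at 2 h, at 841, 963 and 1157 CPM at 4 h and at 1716, 2509 and 1524 CPM at 8 h. The 4 groups follow each other without overlap, and the difference at 8 h was 2.25 ± 0.25 (adjusted p = 1.2e-07). COX4I1, the common form of subunit 4, went from 666, 533 and 658 CPM at 0 h to 2295, 3127 and 2757 CPM (2.13 ± 0.32, adjusted p = 8.6e-06). COX7C and COX8A, with COXFA4 the complex IV genes with the most reads, rose by 1.81 ± 0.34 and 1.71 ± 0.39, and COXFA4 by 1.91 ± 0.36. COX6A1 (1.90 ± 0.24) and COX6B1 (1.74 ± 0.43), whose muscle and testis forms had almost no reads, rose as well.

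Both uncalled complex IV genes are paralogs with other known roles. COX7A2L, known for its part in joining respiratory complexes into supercomplexes, stood at 47.1, 54.6 and 79.5 CPM at 0 h and at 82.7, 74.9 and 50.7 CPM at 8 h, where the groups overlap (0.20 ± 0.24, adjusted p = 0.50). Its paralog COX7A2 showed 2.25 in the same libraries. COXFA4L2, a hypoxia-induced relative of COXFA4, had few reads, with 5.16, 4.12 and 7.85 CPM at 0 h and 9.80, 8.53 and 50.7 CPM at 8 h (1.42 ± 0.69, adjusted p = 0.090). Its level at 8 h rests mostly on 1 library.

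Complex V, ATP synthase, has a catalytic F1 head and a membrane part with its stalks. At 8 h 4 of 5 F1 genes (median 1.59) and 11 of 12 genes of the membrane part and stalks (median 1.52) were higher. ATP5F1B, the catalytic beta subunit, stood at 1172, 1209 and 926 CPM at 0 h and at 3320, 4216 and 2575 CPM at 8 h (1.59 ± 0.27, adjusted p = 2.9e-05), and ATP5F1E, the epsilon subunit, at 472, 515 and 261 CPM against 1696, 2507 and 1176 CPM (2.10 ± 0.34, adjusted p = 2.0e-05). Neither gene's groups overlap. ATP5F1D, the delta subunit, varied between 169 and 421 CPM at 8 h and was not called (1.69 ± 0.95, adjusted p = 0.14). ATP5MK, a small subunit of the membrane part, went from 241, 243 and 60.5 CPM to 675, 933 and 556 CPM (2.20 ± 0.46, adjusted p = 0.00035), and ATP5MF by 2.08 ± 0.53. The 3 genes ATP5MC1, ATP5MC2 and ATP5MC3 encode the same mature c subunit of the rotor ring. ATP5MC1 rose by 1.99 ± 0.50 and ATP5MC3 by 1.44 ± 0.26, while ATP5MC2 had 1.41 ± 0.63 and missed the threshold (adjusted p = 0.065).

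**Figure D2:**
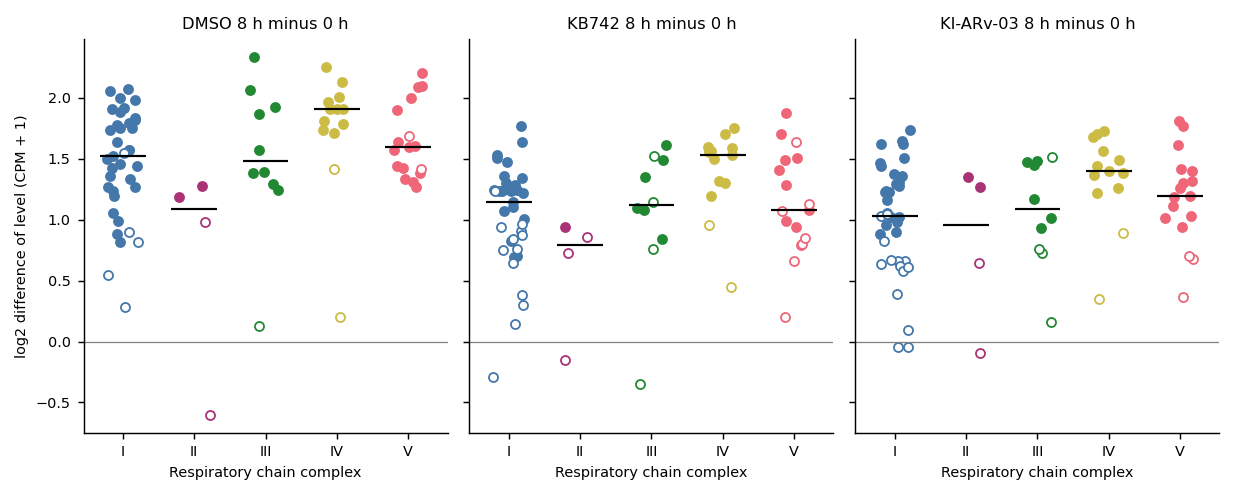
Difference of level from 0 h on the log2(CPM + 1) scale for the 81 tested subunit genes at 8 h with DMSO, KB742 (1.2 µM) and KI-ARv-03 (4 µM), by complex; filled points passed an adjusted p under 0.05 (limma), open points did not, and lines are medians. With DMSO the medians run from 1.08 in complex II to 1.90 in complex IV, and the 3 panels share the 0 h libraries.

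The libraries of the DMSO 8 h group lay above all 3 libraries at 0 h in 74 of the 81 genes, where 25.0% of all genes did so. Among the genes called at 4 h the largest differences were in NDUFB11 (1.53 ± 0.54), NDUFA7 (1.49 ± 0.40), COX4I1 (1.37 ± 0.32), ATP5MK (1.35 ± 0.46) and COX8A (1.32). The 3 genes that carry older ATP5 or COX names without being subunits did not move alike. EMC8, of an endoplasmic reticulum membrane complex, had -0.60 ± 0.25 at 8 h (adjusted p = 0.051), DMAC2 rose by 1.28 ± 0.33, and DMAC2L had 0.59 ± 0.41.

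Transcripts of the subunit genes are short, with a median of 931 bases (80 genes with a RefSeq transcript) against 2755 over 10929 genes tested, and in 3′-end libraries each transcript gives about 1 tag whatever its length. Over all genes short transcripts also stood higher at 8 h with DMSO (Spearman -0.32 between length and difference, -0.34 over the subunit genes, across genes that share the libraries). Within each class of length the subunit genes had the higher median. It was 1.94 against 1.15 for other genes under 500 bases, 1.70 against 0.86 from 500 to under 1000, and 1.41 against 0.33 from 1000 to under 2000. From 2000 to under 4000 bases it was 1.39 against -0.31 with 10 subunit genes, and from 4000 on 1.44 against -0.63 with 3. Length still varied within each class, and the part of transcript length in these differences was not tested. Genes whose promoter held the ETS letters, as printed above for COX8A and UQCRH, had a median of 1.80 (20 genes) against 1.51 without them (46 genes). With the YY1 letters it was 1.52 (11 genes) against 1.57, and with the NRF1 letters, as in SDHD, 1.06 (4 genes) against 1.57.

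Did the CDK9 inhibitors change the levels? Against DMSO at the same time, limma called 0 of the 81 subunit genes for either compound at 2, 4 or 8 h. At 8 h the differences nevertheless leaned one way, since 78 of 81 were below 0 with KB742 (median -0.43) and 73 of 81 with KI-ARv-03 (median -0.45). All genes tested had medians of -0.01 and 0.02, and 1.73% and 2.82% of them were called in either direction. The doses of the compounds differ, so the values stand side by side without a comparison, and both are set against the same DMSO libraries. An unadjusted p under 0.05 was found in 10 subunit genes with KB742 and 12 with KI-ARv-03, and the share of all genes at that limit is not given here. edgeR called 0 for each, and DESeq2 called NDUFS5 and UQCR10 with KB742 and NDUFS5 with KI-ARv-03. At 2 and 4 h 0 had an unadjusted p under 0.05, and both other tools called 0, where limma called 0.0263% and 0.114% of all genes with KB742 and 0.0263% and 0.0614% with KI-ARv-03.

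The intervals show how much could have been seen. A 95% interval had a median half-width of 0.73 over the subunit genes. With KB742 the interval lay wholly below 0 in 10 genes and its lower limit was above -1 in 20, and with KI-ARv-03 in 12 and 32. In 0 of 81 genes did the interval lie wholly below -1. These counts stand without the same counts over all genes. The medians at 8 h kept their sign with the other scalings (-0.19 by library size and -0.08 with the deposited CPM for KB742, -0.25 and -0.13 for KI-ARv-03), but with the deposited CPM 28 and 32 genes were above 0. Relative to the median of all genes the subunit genes stood lower by 0.33 to 0.42 with KB742 and by 0.38 to 0.47 with KI-ARv-03 over the 3 scalings. No test of these medians was made, since the genes share their libraries. The difference from DMSO at 8 h minus that at 2 h had a median of -0.41 with KB742 and -0.42 with KI-ARv-03. By library size these medians were -0.09 and -0.19, and with the deposited CPM the KB742 median turned to 0.11 (51 of 81 above 0) and that of KI-ARv-03 was -0.05. For both differences limma, edgeR and DESeq2 called 0 of 81 (0.00878% and 0.00% of all genes by limma).

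Single genes show the overlap behind these counts. NDUFS5 stood at 911, 1115 and 957 CPM with DMSO at 8 h, at 642, 681 and 719 CPM with KB742 and at 694, 700 and 476 CPM with KI-ARv-03. Every library with a compound lies below every DMSO library, and the differences were -0.54 ± 0.20 (adjusted p = 0.19) and -0.69 ± 0.20 (adjusted p = 0.056). NDUFA1 had 1748, 1170 and 1317 CPM with KB742 and 1786, 1202 and 1748 CPM with KI-ARv-03, all below its 2199 to 2483 CPM with DMSO (-0.74 ± 0.27 and -0.58 ± 0.27). For COX4I1 the libraries with DMSO (2295, 3127 and 2757 CPM) overlap those with KB742 (1343, 2832 and 2110 CPM) and KI-ARv-03 (1647, 2940 and 966 CPM). The same holds for COX7A2 with KI-ARv-03 (1722, 1034 and 1125 CPM), but not with KB742 (1486, 1160 and 1350 CPM). SDHD had the highest difference with each compound, 0.45 ± 0.91 and 1.25 ± 0.91, on values from 5.88 to 180 CPM in the libraries with a compound. The largest fall in size was in ATP5MGL with KB742 (-1.44 ± 0.44, adjusted p = 0.097) and in NDUFS8 with KI-ARv-03 (-1.45 ± 0.83, adjusted p = 0.38), and neither passed.

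In all, 11 subunit genes with KB742 and 8 with KI-ARv-03 had all 3 libraries below all 3 DMSO libraries at 8 h, where 6.99% and 8.40% of all genes did so. For 0 of 81 did all 3 lie above, where 9.21% and 12.6% of all genes did. KI-ARv-03 8 h replicate 2 weighed on this comparison. Without it limma called 5 genes lower (COX4I1, NDUFB11, NDUFS5, NDUFS8 and NDUFV3), and without KB742 8 h replicate 3 it called ATP5MGL. Those names were chosen after their values were seen, and shares of all genes without these libraries are not given here.

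**Figure D3:**
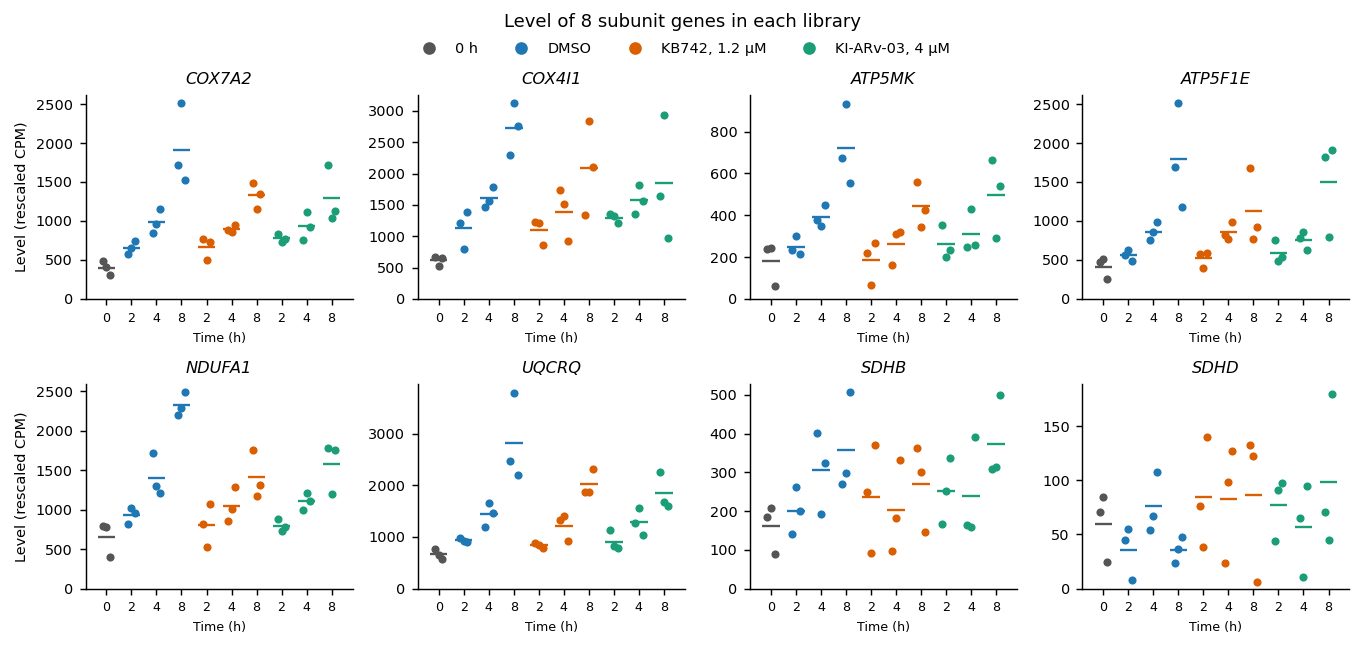
Level (rescaled CPM, linear axis from 0) of 8 subunit genes in each of the 30 libraries by time, coloured by treatment, with the mean of each group as a line. COX7A2, COX4I1, ATP5MK, ATP5F1E, NDUFA1 and UQCRQ climb with time, COX7A2 with DMSO from 301 to 493 CPM at 0 h to 1524 to 2509 CPM at 8 h, while the SDHD libraries of every later group overlap those of 0 h.

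Base composition moved with the spread between libraries. The GC content of the last 400 bases of a transcript correlated across 80 subunit genes with a library's deviation from its group, with Spearman values from -0.78 (KB742 8 h replicate 1) to 0.73 (KI-ARv-03 8 h replicate 2) and a size of at least 0.5 in 13 of 30 libraries. It also correlated with the differences from DMSO at 8 h, at 0.40 with KB742 and -0.58 with KI-ARv-03 over the subunit genes (-0.22 and -0.43 over all genes), and at 0.17 with the difference of DMSO 8 h from 0 h. These are descriptions over genes that share libraries. After a correction of each library for GC content, chosen after seeing the data, 71 of 80 subunit genes were higher at 8 h with DMSO and 55 at 4 h, where 27.3% and 13.2% of all genes were higher under the same correction. With it 2 were higher at 2 h (COX7A2 and UQCR11, 0.192% of all genes). Against DMSO at 8 h 1 was lower with KB742 (COX6C, 1.18% of all genes) and 3 with KI-ARv-03 (ATP5MC3, ATP5PB and NDUFS5, 1.58%). The part of base composition in the results was not tested further.

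The subunit genes also rose with time under the compounds. Against 0 h, 51 of 81 were higher after 8 h with KB742 and 56 after 8 h with KI-ARv-03, and 0 were lower. Of all genes 12.5% and 13.7% were called higher and 22.1% and 22.2% lower. The medians were 1.15 and 1.20, beside 1.57 with DMSO. These comparisons share the 0 h libraries. By complex, 24 genes of complex I, 1 of complex II, 6 of complex III, 11 of complex IV and 9 of complex V were higher with KB742, and 23, 2, 6, 11 and 14 with KI-ARv-03. By library size the counts were 18 and 18 (2.20% and 1.59% of all genes were higher), and with the deposited CPM 21 and 25 (3.34% and 2.57%). One of the 18 with KB742 by library size was lower and not higher, UQCRFS1 (-0.90, adjusted p = 0.042). Under all 3 scalings 17 and 18 genes were higher, and the share of all genes higher under all 3 is not given here.

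ATP5MF had the largest difference with KB742 (1.87 ± 0.53, adjusted p = 0.0079), on 1623, 1513 and 697 CPM at 0 h and 3053, 7958 and 3460 CPM at 8 h. It was followed by NDUFA13 (1.77 ± 0.63), COX7A2 (1.75 ± 0.25), ATP5MC1 (1.70 ± 0.50) and COX4I1 (1.70 ± 0.32). With KI-ARv-03 ATP5F1E came first (1.81 ± 0.34, adjusted p = 0.00018), on 1815, 792 and 1911 CPM at 8 h, followed by ATP5MF (1.77 ± 0.53), NDUFA7 (1.74 ± 0.40), COXFA4 (1.73 ± 0.36) and COX5A (1.70 ± 0.28). In both leading genes every library at 8 h lies above every 0 h library. Across the tested subunit genes, 49 with KB742 and 51 with KI-ARv-03 had no overlap with 0 h, where 16.7% and 17.4% of all genes lay higher without overlap.

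Conversion tells new RNA from old. The value is the deposited fraction given in percent, tested by limma after an arcsine square root transform, where a value behind fewer than 20 reads was left out. In subunit genes it was low at all times. The median over the 81 genes was 0.105% at 0 h, and 0.231%, 0.312% and 0.317% after 2, 4 and 8 h with DMSO, beside 0.271%, 0.587%, 0.891% and 1.03% over all genes with values. With DMSO at 8 h 53 of the 81 were still under 0.5% and 12 had at least 1%. Among the 12 are ATP5MGL, at 8.10% already at 0 h, and COXFA4L2, which had few reads and a mean of 4.20% at 0 h. Shares of all genes at these limits are not given here.

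Against 0 h, 28 of 81 subunit genes rose in conversion at 8 h with DMSO and 1 fell, where 42.8% of all genes tested rose and 0.0465% fell. The median rise was 0.155 percentage points against 0.623 over all genes. At 4 h 20 rose and 0 fell (34.7% and 0.0257% of all genes), and at 2 h 7 rose and 1 fell (8.78% and 0.0362%). The 7 at 2 h were NDUFV3, NDUFB9, NDUFA6, UQCR11, UQCRQ, ATP5F1A and ATP5ME, with rises from 3.17 points in NDUFV3 down to 0.201 in ATP5ME. By complex, 13 of 37 genes of complex I, 1 of 4 of complex II, 6 of 10 of complex III, 3 of 13 of complex IV and 5 of 17 of complex V rose at 8 h. The 3 DMSO libraries lay above the 0 h libraries in 46 of 80 genes, where 52.6% of all genes did so. Without DMSO 8 h replicate 2 there were 19 calls at 8 h in place of 29, and without 0 h replicate 3 there were 3 in place of 8 at 2 h, where each of 0 h replicate 2 and DMSO 2 h replicates 2 and 3 also took the count down (to 4, 5 and 2). Without the 3 libraries that stood apart there were 5, 31 and 34 calls at 2, 4 and 8 h. Shares of all genes with libraries left out are not given here.

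**Figure D4:**
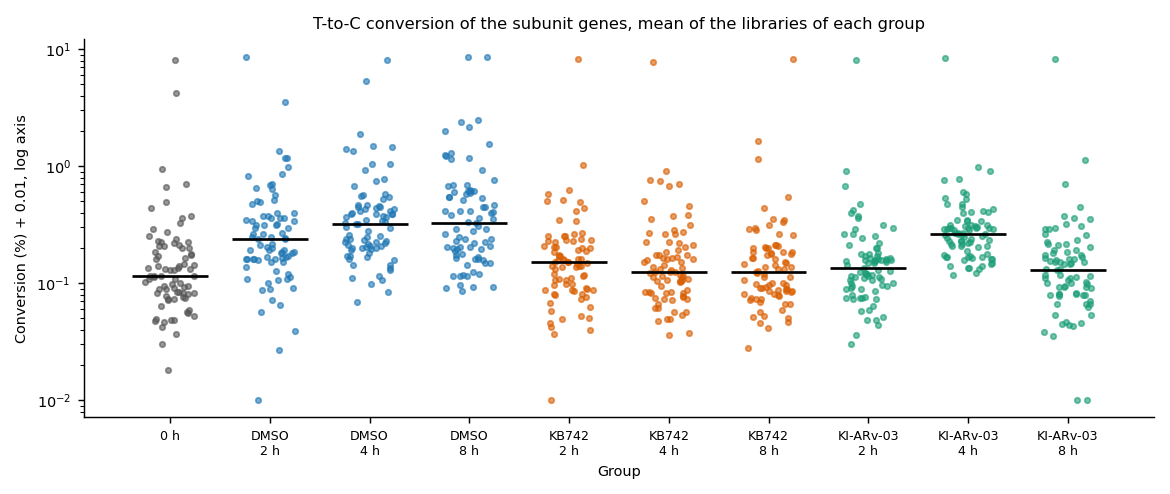
T-to-C conversion of the 81 tested subunit genes (mean of the libraries of each group, 1 point per gene, log axis with 0.01 added) in the 10 groups, with the group median as a line. The median climbs from 0.105% at 0 h to 0.317% with DMSO at 8 h and lies at 0.114% with KB742 and 0.120% with KI-ARv-03 at 8 h. ATP5MGL lies at 6.62 to 9.71% in every library.

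NDUFV3, an accessory subunit of the NADH-binding part of complex I, had the largest rise of conversion. It stood at 0.169%, 0.861% and 0.0630% at 0 h, at 4.46%, 2.88% and 3.25% at 2 h, at 3.83%, 5.29% and 6.97% at 4 h and at 6.78%, 9.51% and 9.36% at 8 h. No DMSO library overlaps 0 h, and the rise at 8 h was 8.18 percentage points (adjusted p = 3.0e-10). Its level was not called in that comparison (0.90 ± 0.53). NDUFB9 rose from 0.131%, 0.114% and 0.0540% to 1.27%, 1.57% and 3.61% (2.05 points, adjusted p = 1.6e-06), and NDUFS8 from 0.331%, 0% and 0.121% to 1.73%, 3.16% and 2.19% (2.21 points, adjusted p = 2.2e-05). In both genes every DMSO library at 8 h lies above every 0 h library. NDUFA6 rose by 1.09 points and NDUFA3 by 1.50.

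SDHD, which was not called by level, had the next largest rise. It stood at 0.151%, 0.375% and 0% at 0 h and at 2.52%, 2.56% and 2.34% with DMSO at 8 h (2.30 points, adjusted p = 9.5e-05). The course of SDHD was not steady. Its mean was 1.16% at 2 h, where it was not called, above the 0.293%, 0.641% and 0.381% at 4 h. In complex III, UQCR11 went from 0.267%, 0.231% and 0.562% to 1.08%, 1.34% and 1.40% (0.922 points, adjusted p = 9.7e-05), and the Rieske protein gene UQCRFS1 from 0.326%, 0.204% and 0.912% to 0.929%, 2.89% and 2.15% (1.51 points, adjusted p = 0.013). UQCR11 also rose in level, and UQCRFS1 did not.

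Several genes with large rises in level had little conversion. COX7C stood at 0.0600%, 0.0670% and 0.0770% at 0 h and at 0.165%, 0.166% and 0.251% at 8 h, a rise of 0.126 points without overlap (adjusted p = 0.025). COX7A2 stood at 0.0820%, 0.0380% and 0.275% against 0.323%, 0.302% and 0.222%, and COX4I1 at 0.0810%, 0.0570% and 0.0800% against 0.0880%, 0.289% and 0.188%. Neither was called, and only the libraries of COX7A2 overlap. NDUFA1 stayed between 0.0860% and 0.140% with DMSO at 8 h. Over the 81 genes conversion at 8 h and the difference of level had a Spearman correlation of -0.19, and over 7661 genes -0.53, across genes that share libraries and depth.

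Conversion fell in 2 places. NDUFS1 went from 0.246%, 0.376% and 1.48% at 0 h to 0.112%, 0.260% and 0.0300% with DMSO at 8 h (-0.565 points, adjusted p = 0.029), where the groups overlap and 1 library at 0 h is high. COXFA4L2 fell at 2 h (-4.20 points, adjusted p = 0.021) from 2 values at 0 h, 0.524% and 7.88%, to 0% in 3 libraries of few reads. ATP5MGL stood between 6.62% and 9.71% in all 30 libraries, 0 h included, and was called in no comparison. It is a near-identical copy of ATP5MG, so its conversions cannot be told apart from differences between the copies.

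With the CDK9 inhibitors the median conversion of subunit genes was below that with DMSO at each time. After 2, 4 and 8 h with KB742 it stood at 0.142%, 0.115% and 0.114%. For KI-ARv-03 it was 0.124% and 0.120% at 2 and 8 h but 0.254% at 4 h, nearer the 0.312% of DMSO 4 h than the 0.105% of 0 h. That 4 h value rests largely on replicate 1, where subunit genes had a mean of 0.486%, against 0.113% and 0.128% in replicates 2 and 3. The median difference from DMSO at 4 h was -0.040 points, and -0.151 without the 3 libraries that stood apart. With KB742 1 of 81 genes was lower than with DMSO at 2 h (0.893% of all genes were lower), 17 of 81 at 4 h (17.6%) and 26 of 80 at 8 h (34.4%). Higher were 0 at each time, as were 0.00%, 0.0132% and 0.00% of all genes. With KI-ARv-03 2 of 81 were lower at 2 h (0.823%), 8 of 81 at 4 h (7.52%) and 26 of 80 at 8 h (36.7%), and 0 were higher at each time, as were 0.00%, 0.0394% and 0.0159% of all genes. The median differences at 8 h were -0.169 and -0.163 percentage points, against -0.543 and -0.587 over all genes. At 8 h 51 of 79 genes with KB742 lay below DMSO without overlap (48.7% of all genes) and 51 of 80 with KI-ARv-03 (52.8%). Against 0 h limma called 0 of 80 subunit genes at 8 h with either compound (5 with an unadjusted p under 0.05 for each), where 3.11% and 2.25% of all genes were called. The share of all genes with such an unadjusted p is not given here.

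By complex, 14 genes of complex I, 2 of complex II, 4 of complex III, 1 of complex IV and 5 of complex V were lower in conversion with KB742 at 8 h, and 13, 1, 4, 3 and 5 with KI-ARv-03. NDUFV3 stood at 2.07%, 1.63% and 1.17% with KB742 at 8 h and at 1.71%, 0.487% and 1.13% with KI-ARv-03, all below its 6.78 to 9.51% with DMSO (-6.92 points, adjusted p = 1.4e-06, and -7.44 points, adjusted p = 2.6e-07). NDUFB9 had 0.423%, 0.284% and 0.0320% with KB742 and 0.265%, 0.332% and 0.154% with KI-ARv-03, against at least 1.27% with DMSO (-1.91 and -1.90 points). It was also the 1 gene called at 2 h with KB742 (-1.10 points, adjusted p = 0.042), and at 2 h with KI-ARv-03 it was called with NDUFV3. On a log2 scale 0 genes were called at 2 h with either compound. The KB742 count at 2 h was also 0 with only the compared groups fitted, without the 3 libraries that stood apart, and without replicate 2 or 3 of DMSO 2 h or of KB742 2 h. The KI-ARv-03 count at 2 h was 0 without DMSO 2 h replicate 2 or 3 or KI-ARv-03 2 h replicate 2, and 1 without DMSO 2 h replicate 1 or KI-ARv-03 2 h replicate 1 or 3. The 8 genes lower at 4 h with KI-ARv-03 were NDUFV3 (-4.59 points), NDUFS8, NDUFB9, NDUFA6, NDUFV1, NDUFA3, UQCR11 and NDUFB10 (-0.452 points), all but UQCR11 of complex I. At 4 h with KI-ARv-03 a log2 scale gave 0 calls and a fit of only the compared groups 2. NDUFS8 fell at 8 h by 2.16 and 2.04 points and SDHD by 1.94 and 2.13. For SDHD with KB742 only 2 of 3 libraries had enough reads. NDUFA3 listed 0% in all 3 libraries with KI-ARv-03 at 8 h.

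UQCR11 showed the fall at small size. It had 0.241%, 0.575% and 0.223% with KB742 and 0.262%, 0.504% and 0.277% with KI-ARv-03 at 8 h, against 1.08% to 1.40% with DMSO (-0.929 points, adjusted p = 0.00014, and -0.927 points, adjusted p = 0.00018). Among the genes with the most reads ATP5F1B fell by 0.177 and 0.164 points and ATP5MF by 0.248 and 0.183. COX7C and COX7A2 were lower with KI-ARv-03 (-0.122 and -0.202 points). With KB742 they narrowly missed the threshold (-0.115 points, adjusted p = 0.053, and -0.179 points, adjusted p = 0.063, by limma).

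**Figure D5:**
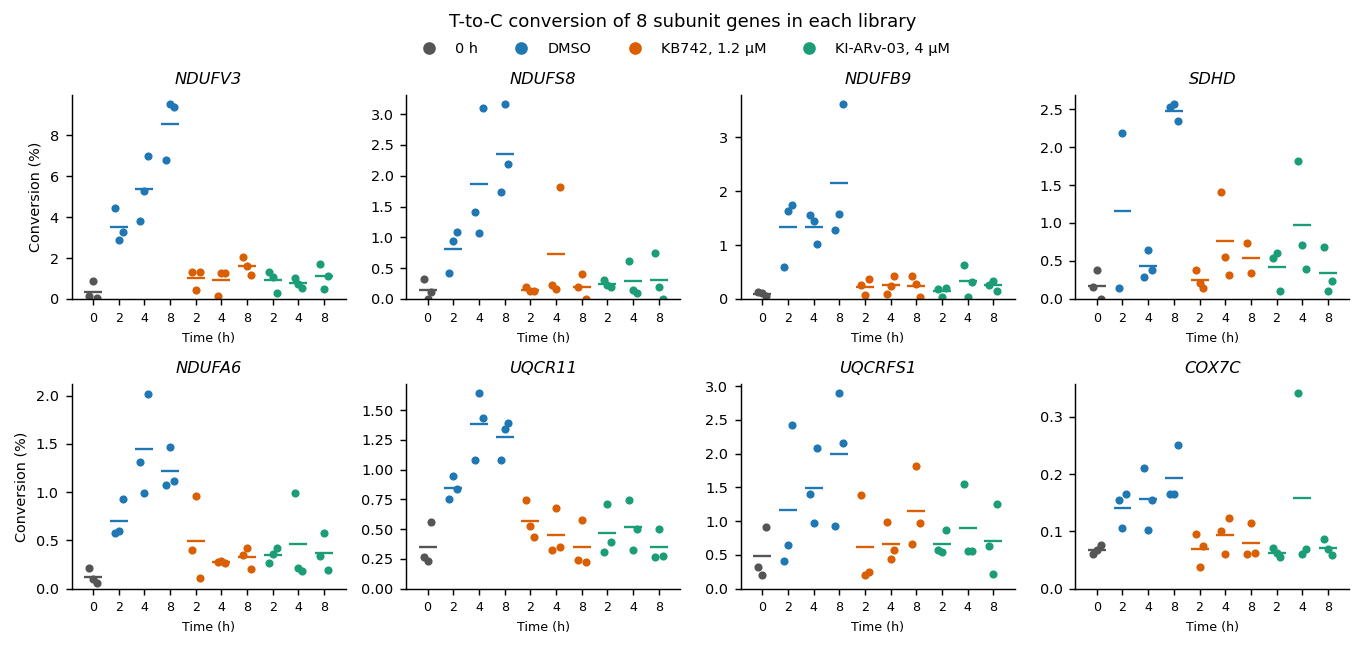
T-to-C conversion (percent, linear axis from 0) of 8 subunit genes in each library by time, coloured by treatment, with group means as lines; a library with fewer than 20 reads of the gene has no point. NDUFV3 reaches 6.78 to 9.51% with DMSO at 8 h and 0.487 to 2.07% with a compound, and in COX7C KI-ARv-03 4 h replicate 1 lies at 0.342%, above the other libraries.

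The counts moved when single libraries were left out. Each time a group also lost 1 of its 3 libraries, and the weight of a library was not told apart from that loss. KI-ARv-03 4 h replicate 1, with the mean conversion of 1.17%, lay near the DMSO 4 h libraries (0.965 to 1.10%). Without it 24 genes were lower in place of 8, and without the 3 libraries that stood apart 28. The count fell to 1 and 3 without replicates 2 and 3 of that group, and to 4 without DMSO 4 h replicate 1 or 3. For KB742 at 4 h it went from 17 to 11 and 6 without DMSO 4 h replicates 1 and 3, to 6 without KB742 4 h replicate 1 or 2, and to 36 without the 3 libraries that stood apart. At 8 h without those 3 libraries it was 45 for KB742 and 46 for KI-ARv-03. For KB742 it was 17 without DMSO 8 h replicate 2 or KB742 8 h replicate 3 and 16 without DMSO 8 h replicate 3, and for KI-ARv-03 it was 14 without DMSO 8 h replicate 2. Shares of all genes under these settings are not given here, so the shifts do not speak of the subunit genes alone.

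Other genes of the same machinery were followed by list. At 8 h with DMSO, where 19.6% of all genes were called higher and 29.2% lower, 10 of 14 citric acid cycle genes were higher and 0 lower (median 1.35), among them IDH3B (1.70 ± 0.34), a subunit of isocitrate dehydrogenase. Of 15 electron carrier genes 6 were higher and 0 lower (median 0.50), among them CYCS, cytochrome c (1.05 ± 0.31). Assembly factors were mixed, with 18 of 51 higher and 8 lower (median 0.60). Among the lower ones were SDHAF2 (-3.41 ± 0.34) and SDHAF1 (-2.64 ± 0.55), which help build complex II, and SCO2 (-2.78 ± 0.48), a copper chaperone of complex IV. Of 13 regulators of mitochondrial biogenesis 2 were higher and 7 lower (median -1.47), among the lower ones TFB2M, a mitochondrial transcription factor, at -3.65 ± 0.77 and the coactivator PPARGC1B at -3.16 ± 0.45. Cytosolic ribosomal protein genes rose in 70 of 78 (median 1.64) and mitochondrial ones in 23 of 77, with 8 lower (median 0.32).

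With the compounds 1 assembly factor was lower by level at 8 h in each comparison, COX19, which serves copper delivery to complex IV (-2.01 ± 0.39, adjusted p = 0.0053, with KB742 and -2.37 ± 0.39, adjusted p = 0.00080, with KI-ARv-03). Of all 11395 genes tested, 59 were lower with KB742 and 93 with KI-ARv-03. COX19 stood at 70.6 ± 32.6 CPM (SD, n = 3) with DMSO, 16.1 ± 5.42 with KB742 and 13.4 ± 7.38 with KI-ARv-03. By conversion at 8 h with DMSO, 52 of 72 mitochondrial ribosomal protein genes rose (median 1.10 points), 28 of 73 cytosolic ones (0.122 points) and 17 of 41 assembly factors (0.288 points), beside 28 of 81 subunit genes (0.155 points). Over all genes 42.8% rose, with a median of 0.623 points. COX19 rose by 26.4 points, TMEM70, an assembly factor of complexes I and V, by 7.75, and the regulator YY1 by 19.1. Differences between the lists were not tested.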

How the data were processed

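RNA of 22Rv1 cells was measured by SLAM-seq in 30 libraries, 3 in each of 10 groups, with groups taken from the sample titles. For 8 of the 9 samples at 4 h another label field names another time, and the labels disagree on the KB742 dose, where that of the treatment protocol was used. The authors deposited, per transcript, a signal in CPM and a conversion rate as a fraction, from reads aligned to hg19 per the submitters' processing notes. The aligner is not given in the sources used here. All value columns were assigned (0 unused). Whole reads were recovered from the CPM (100.0% of values whole within 0.05). Per gene the messenger RNA transcript with the highest summed CPM was kept. Entries that name no gene held 0.478% of the reads and were left out.

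Levels were log2(CPM + 1) after TMM rescaling (edgeR 4.0.16) for genes passing a minimum count of 10, fitted with limma 3.58.1 (trend) over all 30 libraries, in R 4.3.3. DESeq2 1.42.0 and edgeR count tests on the recovered reads were alternatives. Conversion was arcsine square root transformed and fitted with limma, for values with at least 20 reads and at least 2 values per group. P-values are 2-sided and adjusted by Benjamini-Hochberg over all genes tested. Tables and figures used Python 3.11.15. Tested on simulated data for DMSO 8 h against 0 h, the level fit (10950 genes) recovered 9.57% of genes changed 2-fold and 84% of those changed 4-fold, and the conversion fit (6389 genes) 23.6% of those changed 4-fold. The level simulation gave every gene the same spread beyond counting error. The conversion simulation drew each read as converted or not at the gene's mean rate. Its spread may differ from that of the deposited rates, so these recoveries hold for the simulated settings only.

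Named genes were the 3 with the most reads in each complex, the 5 with the largest called difference in each direction, those called against the median, tissue isoform pairs and, of other lists, the 3 with the largest called differences. Other names serve as examples of a count. Members and lists were chosen with earlier results of these data known. Alternatives varied the scaling, tool, pseudocount, filters, groups fitted and libraries. Promoter sequences are from RefSeq (GRCh38.p14). Values of 1 gene of the list are not reported here.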

Additional observations from a re-analysis of the deposited data

How the results depend on the processing

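By level the counts of subunit genes called moved with the scaling. By library size they were 9 at 4 h and 33 at 8 h with DMSO, and 18 with KB742 and 18 with KI-ARv-03 at 8 h against 0 h, and with the deposited CPM 6, 36, 21 and 25 (37, 69, 51 and 56 with TMM). DESeq2 called 1 at DMSO 2 h, 2 with KB742 and 1 with KI-ARv-03 at 8 h against DMSO, and the GC correction 2, 1 and 3, where limma called 0. A pseudocount of 0.25 gave 1 with KI-ARv-03 at 8 h. Without the 3 libraries that stood apart there were 17 at DMSO 4 h and 1 with KI-ARv-03 at 8 h. That setting and the GC correction were chosen after seeing the data. With the deposited CPM 3 medians changed sign, to 0.0643 for KB742 and 0.0160 for KI-ARv-03 at 4 h and to 0.105 for the KB742 difference at 8 h minus that at 2 h. By conversion, a fit of only the compared groups gave 13 at 2 h and 33 at 4 h with DMSO, 0 at 2 h and 26 at 4 h with KB742, and 5 at 2 h and 2 at 4 h with KI-ARv-03. Without the 3 libraries there were 5 and 31 with DMSO, 0, 36 and 45 with KB742, and 5, 28 and 46 with KI-ARv-03. A log2 scale gave 0 at 2 h for each compound and 0 at 4 h with KI-ARv-03, and a minimum of 50 reads gave 2 at 2 h with KB742. Leaving out 1 library at a time gave by level 0 at 2 h, 13 to 30 at 4 h and 63 to 67 at 8 h with DMSO, 0 to 1 with KB742 and 0 to 5 with KI-ARv-03 at 8 h, and 42 to 49 and 41 to 51 for them against 0 h. By conversion it gave 2 to 8, 15 to 23 and 19 to 32 with DMSO, 0 to 2, 6 to 15 and 16 to 29 with KB742, 0 to 1, 1 to 24 and 14 to 29 with KI-ARv-03, and 0 to 2 and 0 to 1 for them against 0 h. Shares of all genes are not given beside these counts, so the shifts do not speak of the subunit genes alone. The cause of these shifts was not tested. Correlations between the deviations of same-numbered libraries ran from -0.41 to 0.45 and were over 0.1 for all 3 numbers in no comparison, so the numbers were not taken as pairs. With a replicate block the counts by level were 34 at 4 h and 69 at 8 h with DMSO and 51 and 56 for the compounds against 0 h, and by conversion 8, 22 and 30 with DMSO, 1, 17 and 28 with KB742 and 2, 8 and 27 with KI-ARv-03. A conversion value rests on as few as 20 reads of a gene in a library.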
